A study of Homo sapiens with 6 samples.

Results

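The 41 genes described here are ATF4, the genes that switch it on or act beside it, its known targets, the enzymes that make amino acids and one-carbon units, and 4 amino acid transporters. They were chosen by name, with earlier results of these data known, and matched by symbol among the 21134 genes of the expression table. All 41 were found, PYCR3 under its older symbol PYCRL. RNA was sequenced from cardiomyocytes made from human pluripotent stem cells (hiPSC-CMs). The labels name the cell line H9, which is known as a line of human embryonic stem cells, and every library came from this line. The control group (n = 2) was untreated, the alcohol group (n = 2) was given 100-mM alcohol for 24 h, and the co-treated group (n = 2) was given 100-mM alcohol and 1 μM losartan for 24 h. Losartan blocks the type 1 receptor of angiotensin II, and losartan without alcohol was not analysed here. The comparisons ask what alcohol changed against untreated cells, and what losartan given with alcohol changed against alcohol alone and against untreated cells.

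Cells that lack an amino acid, or whose proteins fold badly, add a phosphate to the translation factor eIF2. This lowers the making of most proteins but raises that of ATF4, a transcription factor of the leucine zipper class. ATF4 pairs with C/EBP proteins and drives genes that take up and make amino acids, and, when the stress lasts, DDIT3 (also called CHOP) and TRIB3, which are tied to cell death. Much of the control of ATF4 lies in its translation, which RNA sequencing does not measure.

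ATF4 and C/EBP proteins bind a composite element whose core is TGATGNAA, where N is any base. This core was searched on both strands of the RefSeq promoter windows (GRCh38.p14, 250 bases before to 50 bases after each annotated start). It was found in 3.62% of all 35116 windows, and 4.46% of the 27305 genes with a window held it in at least 1. Of the 41 genes 33 had a window, and 9 of these (27.3%) held the core: ATF3, ASNS, BCAT1, CEBPG, CHAC1, GOT1, MTHFD1L, SLC1A5 and SLC3A2. These 33 genes had 59 windows, 11 of them with the core. Known targets of ATF4 were among the genes chosen, so a share above that of all genes is no test. A match of letters is not a site of binding. For 5 of the 9, the bases around the core are printed 5′ to 3′ on the strand of the gene, because their RNA levels are set side by side below, with the core in capitals. The sequence of ASNS, the classical example, covers the 250 bases before a start (chr7:97872409-97872658, minus strand), with the core beginning 68 bases before that start. The others show the core with 30 bases on each side, for ATF3 (chr1:212565186-212565253, plus strand), BCAT1 (chr12:24949112-24949179, minus strand), SLC1A5 (chr19:46784874-46784941, minus strand) and CHAC1 (chr15:40953232-40953299, plus strand), the last with the core on the opposite strand.
ASNS: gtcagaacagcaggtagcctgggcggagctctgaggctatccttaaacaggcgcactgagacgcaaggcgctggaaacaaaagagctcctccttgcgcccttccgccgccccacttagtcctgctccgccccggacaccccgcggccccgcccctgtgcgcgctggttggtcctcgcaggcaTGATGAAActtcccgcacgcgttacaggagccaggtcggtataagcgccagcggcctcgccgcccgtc
ATF3: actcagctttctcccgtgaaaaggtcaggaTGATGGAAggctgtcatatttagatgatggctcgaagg
BCAT1: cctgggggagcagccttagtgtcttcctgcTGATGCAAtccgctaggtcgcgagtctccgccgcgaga
SLC1A5: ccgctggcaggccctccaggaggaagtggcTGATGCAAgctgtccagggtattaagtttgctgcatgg
CHAC1: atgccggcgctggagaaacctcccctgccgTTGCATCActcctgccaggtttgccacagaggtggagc

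Reads of 40 of the 41 genes were found in both control libraries. Levels are given as FPKM, a read count corrected for gene length and for library size, so that levels can be set side by side between genes. The median control level of the 41 genes was 12.4 FPKM, against 4.71 FPKM over all genes with a level above 0. ATF4 (127 ± 1.68 FPKM, SD, n = 2) and GOT1 (109 ± 10.98 FPKM) were the most abundant. GOT1 makes aspartate in the cytosol, and its mitochondrial partner GOT2 followed at 65.7 ± 1.94 FPKM. In all, 20 genes, GOT2 among them, lay between 10 and 100 FPKM, 17 between 1 and 10 FPKM, and 2 under 1 FPKM. The 2 lowest were SLC7A11, which brings in cystine (0.730 ± 0.0141 FPKM), and NUPR1, a small stress-induced cofactor with no count in either control library. NUPR1 had 1 count at most in the alcohol and co-treated libraries, below the 3 counts that a count of 0 allows, and was not tested. This limit covers counting error only.

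**Figure D1:**
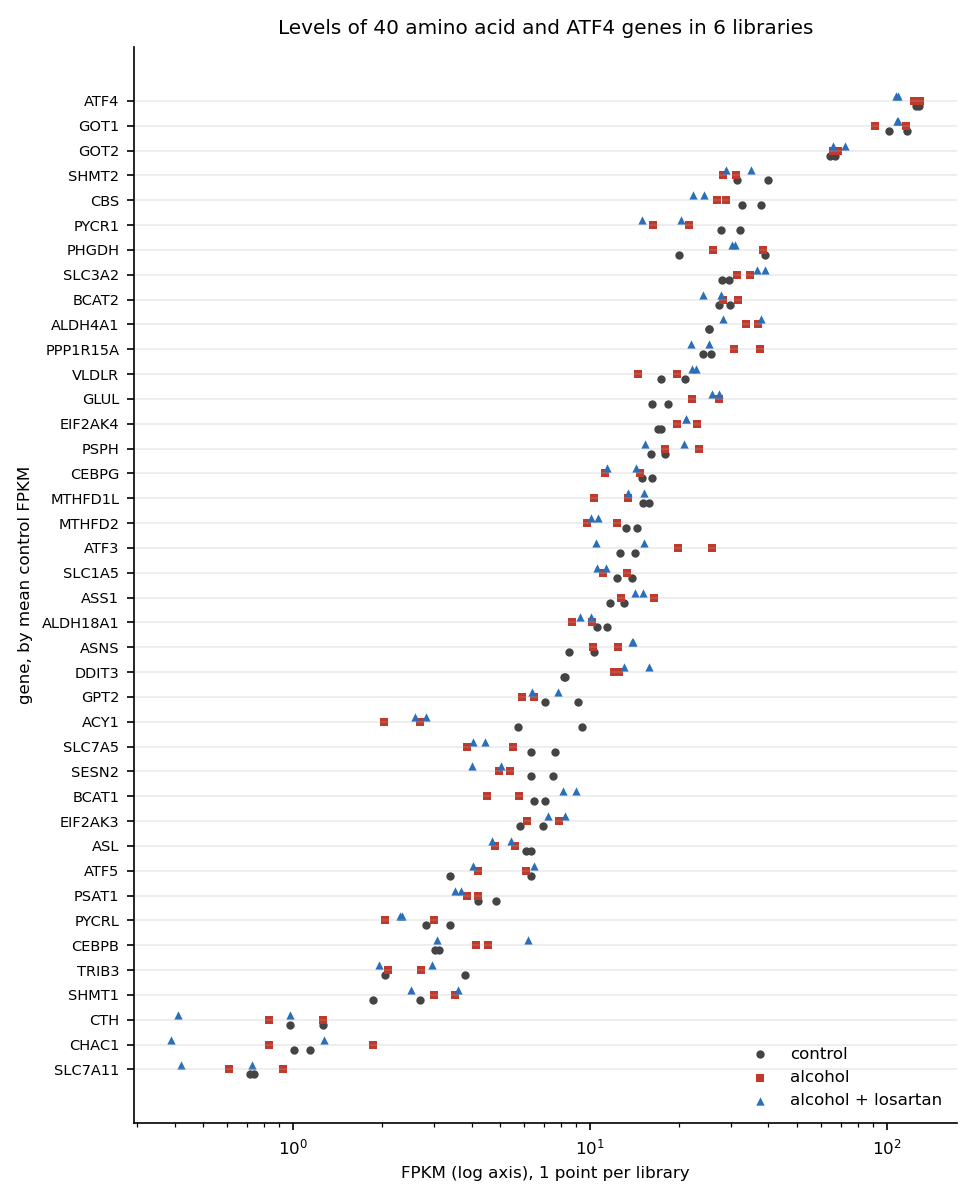
FPKM of 40 of the 41 genes (rows, ordered by the mean of the control libraries) on a log axis, 1 point for each of the 6 libraries, with circles for control, squares for alcohol and triangles for co-treated. NUPR1 is left out because it was at 0 in 3 libraries. Levels span from under 1 FPKM for SLC7A11 to over 100 FPKM for ATF4 and GOT1, and for most genes the libraries of the 3 groups lie close together.

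The libraries held 4898287 to 5051448 expected counts (the reads estimated for each gene), and the 12 cardiomyocyte markers were detected in each. Alcohol replicate 2 stood apart. Its summed FPKM was the lowest of the 6 libraries for the cardiomyocyte markers (22052, against 24905 to 31063), for the 5 smooth muscle markers (730, against 1005 to 1940) and for the 20 HIF-1 targets (1276, against 2368 to 3414). The cardiomyocyte sum is weighted to abundant genes such as MYL7 (9321 FPKM there, the lowest of the 6 libraries). MYH6 (737 FPKM) and TNNI1 (353 FPKM) were highest in that library. Between alcohol and control 6 of the 12 cardiomyocyte markers were higher and 6 lower (median log2 fold change −0.015). The smooth muscle marker ACTA2 fell in the co-treated against the control group (log2 fold change −1.25, SE 0.20, adjusted p = 0.0203). Summed levels of the fibroblast markers were 422 to 518 FPKM, and those of the endothelial, pluripotent and liver lists were 6.23 to 57.9 FPKM. Fewer cells of a type and less RNA per cell cannot be told apart in bulk RNA. The labels do not say whether replicates came from separate cultures, so p-values measure only the spread between these libraries.

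None of the 41 genes passed the test in any comparison. edgeR's quasi-likelihood test, adjusted over the 14926 genes tested, called 10 genes between alcohol and control (0.067%), 2 between co-treated and alcohol (0.0134%) and 54 between co-treated and control (0.362%), and no gene of the 40 tested here in any of these. DESeq2 called 0, 0 and 2 of them. Below, every difference is therefore given as a value, with the log2 fold change, its standard error and the adjusted p from edgeR.

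At an unadjusted p under 0.05 the share of these genes was above that of the whole table in every comparison. Between alcohol and control 5 were higher and 8 lower, where 5.27% and 5.78% of all genes tested were. In all, that is 32.5% of the 40 against 11% of the table. The median log2 fold change of the 40 was −0.08, against −0.0033 over all genes, with 18 above and 22 below 0. Between co-treated and alcohol 2 were higher and 3 lower, where 2.84% and 2.71% of all genes were. Their median was −0.04 against 0.0023, again with 18 above and 22 below 0. Between co-treated and control 6 were higher and 8 lower, where 6.26% and 6.37% of all genes were, and the median was −0.18 against −0.0017. Here 16 lay above and 24 below 0. The comparisons share libraries, so their counts are not independent of each other. These genes also have a higher median level than the table, as given above. They were chosen with earlier results of these data known, so the shares are a description and no test of the list. ACY1, whose counts cannot be read alone, is among the genes lower than control in both treated groups.

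These counts depended on the tool and on single libraries. With DESeq2, 10, 3 and 7 genes had an unadjusted p under 0.05 in the comparisons of alcohol with control, co-treated with alcohol and co-treated with control, against 13, 5 and 14 with edgeR. Without alcohol replicate 2 only 5 genes had an unadjusted p under 0.05 between alcohol and control, and without alcohol replicate 1 the number was 16, with 1 gene, MTHFD1L, called. For 11 of the 13 genes, SESN2 and ACY1 being the others, alcohol replicate 2 lay farther from control than alcohol replicate 1. The same count was not made over all genes, so it cannot be read as a trait of these genes. Between co-treated and alcohol the number was 3 when co-treated replicate 2 was left out. Between co-treated and control, leaving out control replicate 1 gave 7, control replicate 2 gave 9 and co-treated replicate 1 gave 7. With alcohol replicate 1 or alcohol replicate 2 out of the fit, 4 and 3 of the genes were called between co-treated and control. These were CBS, GLUL and PYCR1 in both fits, and ACY1 without alcohol replicate 1.

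**Figure D2:**
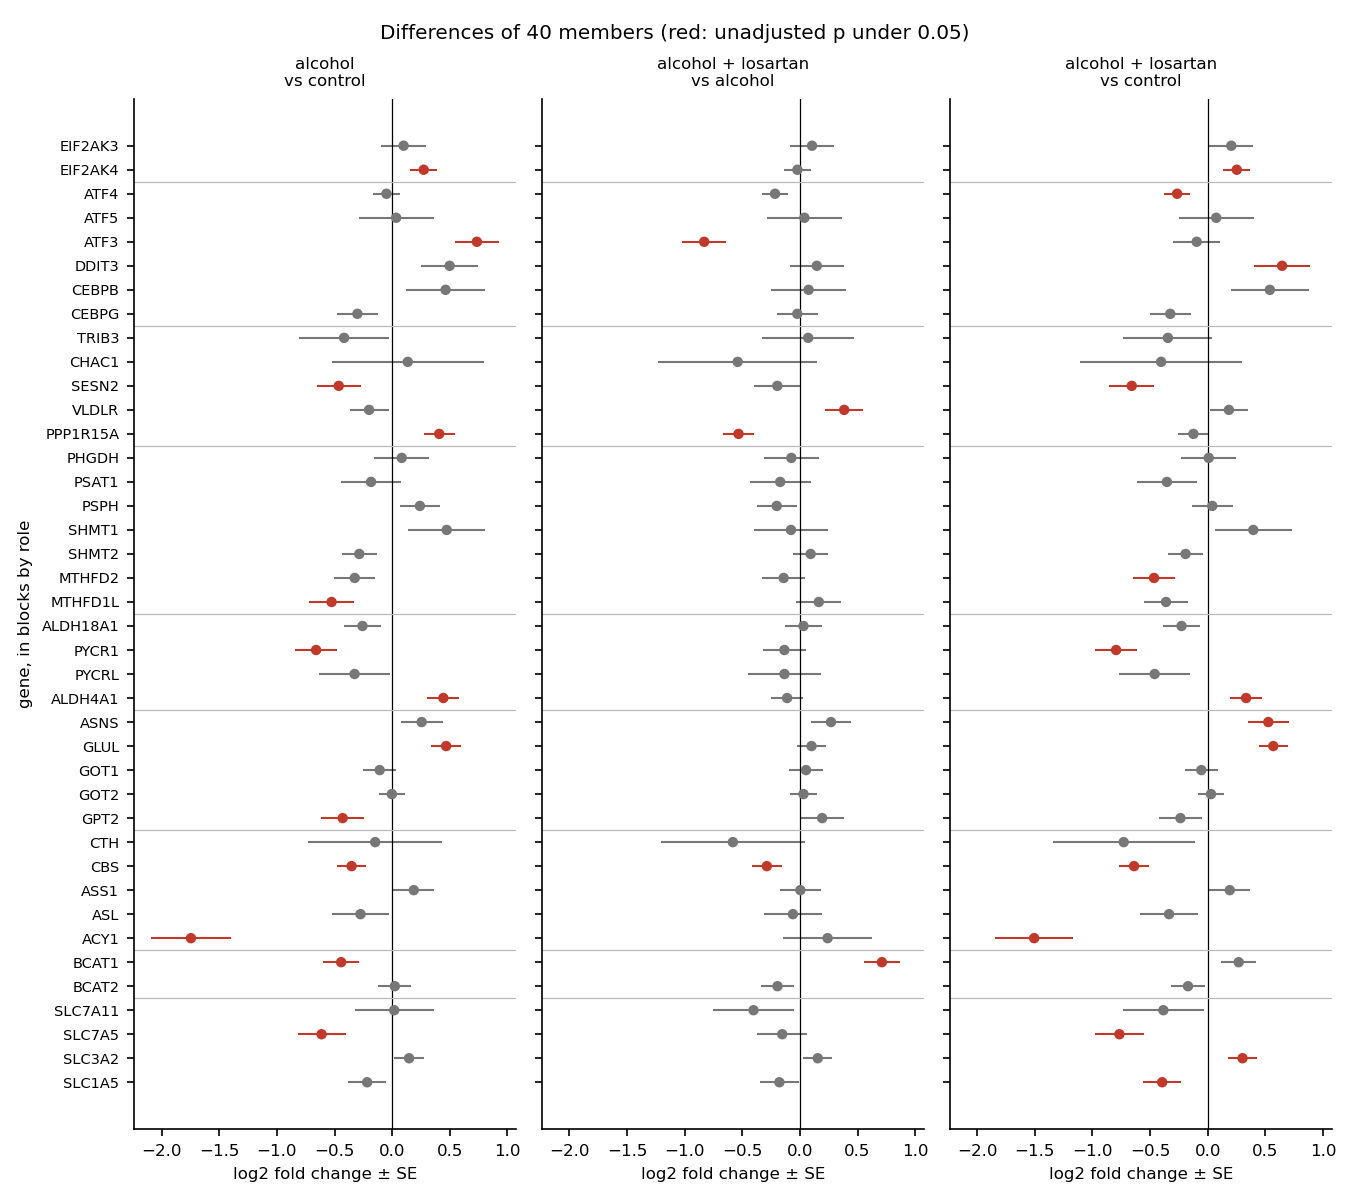
Log2 fold change (points) and its standard error (bars) of the 40 genes tested, grouped by role, for alcohol against control, co-treated against alcohol and co-treated against control. Red marks an unadjusted p under 0.05, which 13, 5 and 14 genes had, and none of the 40 passed the adjusted test. Red points lie on both sides of 0 in each panel.

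The kinases that act on eIF2 differed little. EIF2AK4 (GCN2, NCBI Gene 440275) senses uncharged transfer RNA, and EIF2AK3 (PERK, NCBI Gene 9451) senses unfolded protein in the endoplasmic reticulum. EIF2AK4 stood at 17.0 and 17.4 FPKM in control, 19.7 and 23.0 FPKM after alcohol, and 21.2 and 21.1 FPKM after co-treatment. All 4 libraries given alcohol lay above both control libraries. Against control the log2 fold change was 0.27 (SE 0.12, adjusted p = 0.406) for alcohol and 0.25 (SE 0.12, adjusted p = 0.394) for co-treatment. EIF2AK3 had group means of 6.39 ± 0.806, 7.03 ± 1.22 and 7.75 ± 0.700 FPKM, and the control and alcohol libraries overlapped. Both co-treated libraries lay above control (log2 fold change 0.20, SE 0.19, adjusted p = 0.723).

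ATF4 RNA differed between alcohol and control by less than the spread of the alcohol libraries, while ATF3, which stress induces and which also represses genes, was highest in both alcohol libraries. ATF4 (NCBI Gene 468, chromosome 22) stood at 126 and 128 FPKM in control, 129 and 124 FPKM after alcohol, and 107 and 109 FPKM after co-treatment. The control and alcohol libraries overlapped, and both co-treated libraries lay below the other 4. For alcohol against control the log2 fold change was −0.05 (SE 0.11, adjusted p = 0.921), and for co-treatment it was −0.22 (SE 0.11, adjusted p = 0.900) against alcohol and −0.27 (SE 0.11, adjusted p = 0.350) against control.

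ATF3 (NCBI Gene 467) stood at 14.2 and 12.7 FPKM in control, 19.8 and 25.8 FPKM after alcohol, and 10.5 and 15.2 FPKM after co-treatment. The alcohol libraries lay above the other 4, and the co-treated libraries overlapped with control. Its log2 fold change was 0.73 (SE 0.19, adjusted p = 0.170) for alcohol against control and −0.83 (SE 0.19, adjusted p = 0.471) for co-treated against alcohol, both of which rest on the same 2 alcohol libraries. Without alcohol replicate 2 these values were 0.58 and −0.67. Co-treated and control differed by −0.10 (SE 0.20, adjusted p = 0.893).

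DDIT3 (NCBI Gene 1649) stood at 8.20 and 8.26 FPKM in control, 12.6 and 12.1 FPKM after alcohol, and 15.9 and 13.1 FPKM after co-treatment. Its groups did not overlap, with the co-treated libraries highest. Alcohol and control differed by a log2 fold change of 0.50 (SE 0.25, adjusted p = 0.491), co-treated and control by 0.64 (SE 0.25, adjusted p = 0.292), and co-treated and alcohol by 0.15 (SE 0.24, adjusted p = 0.962). The last value ranged from 0.0047 without co-treated replicate 1 to 0.27 without co-treated replicate 2. The gene had 41 to 72 counts a library, and its locus overlaps MARS1, the methionyl-tRNA synthetase gene, which had 531 to 677 counts. The strand setting of the counting was not given in the sources used here, so reads of overlapping genes could not be assigned by strand.

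Of the other factors, CEBPB, a stress-responsive partner of ATF4, averaged 3.06 ± 0.0636, 4.34 ± 0.290 and 4.62 ± 2.22 FPKM in control, alcohol and co-treated. Its alcohol libraries lay above control, while the co-treated ones spread from 3.05 to 6.19 FPKM. The locus of CEBPB overlaps CEBPB-AS1, which had 34.2 to 69.7 counts, next to 32 to 64.0 counts on CEBPB. Both had their highest count in co-treated replicate 1, and whether they share reads was not tested. CEBPG, another partner, averaged 15.6 ± 0.919, 13.0 ± 2.45 and 12.9 ± 2.05 FPKM, with all 4 treated libraries below control. ATF5, a relative of ATF4 that acts in mitochondrial stress, overlapped in all 3 groups, at 3.39 to 6.49 FPKM. Its locus overlaps NUP62, which had 203 to 275 counts, next to 37.7 to 68.1 counts on ATF5.

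The targets that end or limit the response did not move together. PPP1R15A (GADD34, NCBI Gene 23645) brings in the phosphatase that removes the phosphate from eIF2. It stood at 24.2 and 25.6 FPKM in control, 30.6 and 37.5 FPKM after alcohol, and 25.3 and 21.96 FPKM after co-treatment. The alcohol libraries lay above the other 4, as for ATF3. Its log2 fold change was 0.41 (SE 0.13, adjusted p = 0.267) for alcohol against control and −0.53 (SE 0.13, adjusted p = 0.587) for co-treated against alcohol, and without alcohol replicate 2 these were 0.30 and −0.42.

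SESN2 (sestrin 2, NCBI Gene 83667), which restrains the growth kinase mTORC1, stood at 6.33 and 7.52 FPKM in control, 4.94 and 5.38 FPKM after alcohol, and 5.04 and 4.02 FPKM after co-treatment. All 4 treated libraries lay below control, by a log2 fold change of −0.46 (SE 0.19, adjusted p = 0.397) for alcohol and −0.66 (SE 0.19, adjusted p = 0.171) for co-treatment. SESN2 and DDIT3 are both known as genes that ATF4 raises, and they lay on opposite sides of control.

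VLDLR (NCBI Gene 7436), a lipoprotein receptor, stood at 21.0 and 17.3 FPKM in control, 19.7 and 14.5 FPKM after alcohol, and 22.7 and 22.1 FPKM after co-treatment. Both co-treated libraries lay above the other 4, and the co-treated group differed from alcohol by a log2 fold change of 0.38 (SE 0.17, adjusted p = 0.891). Without alcohol replicate 2 the value was 0.15, and without alcohol replicate 1 it was 0.65.

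TRIB3, a pseudokinase that feeds back on ATF4, and CHAC1, which degrades glutathione, are among the genes that rise most when ATF4 is active. TRIB3 (NCBI Gene 57761) stood at 2.04 and 3.79 FPKM in control, 2.71 and 2.10 FPKM after alcohol, and 2.94 and 1.95 FPKM after co-treatment. CHAC1 (NCBI Gene 79094) stood at 1.14 and 1.01, 0.830 and 1.86, and 0.390 and 1.27 FPKM in the same order. The groups overlapped for both genes. For alcohol against control the log2 fold change was −0.42 (SE 0.39, adjusted p = 0.758) for TRIB3 and 0.14 (SE 0.66, adjusted p = 0.964) for CHAC1. CHAC1 had 3 to 13 counts a library, a depth at which a difference of the size seen in ATF3 was not detectable, and both signs turned when single libraries were left out.

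**Figure D3:**
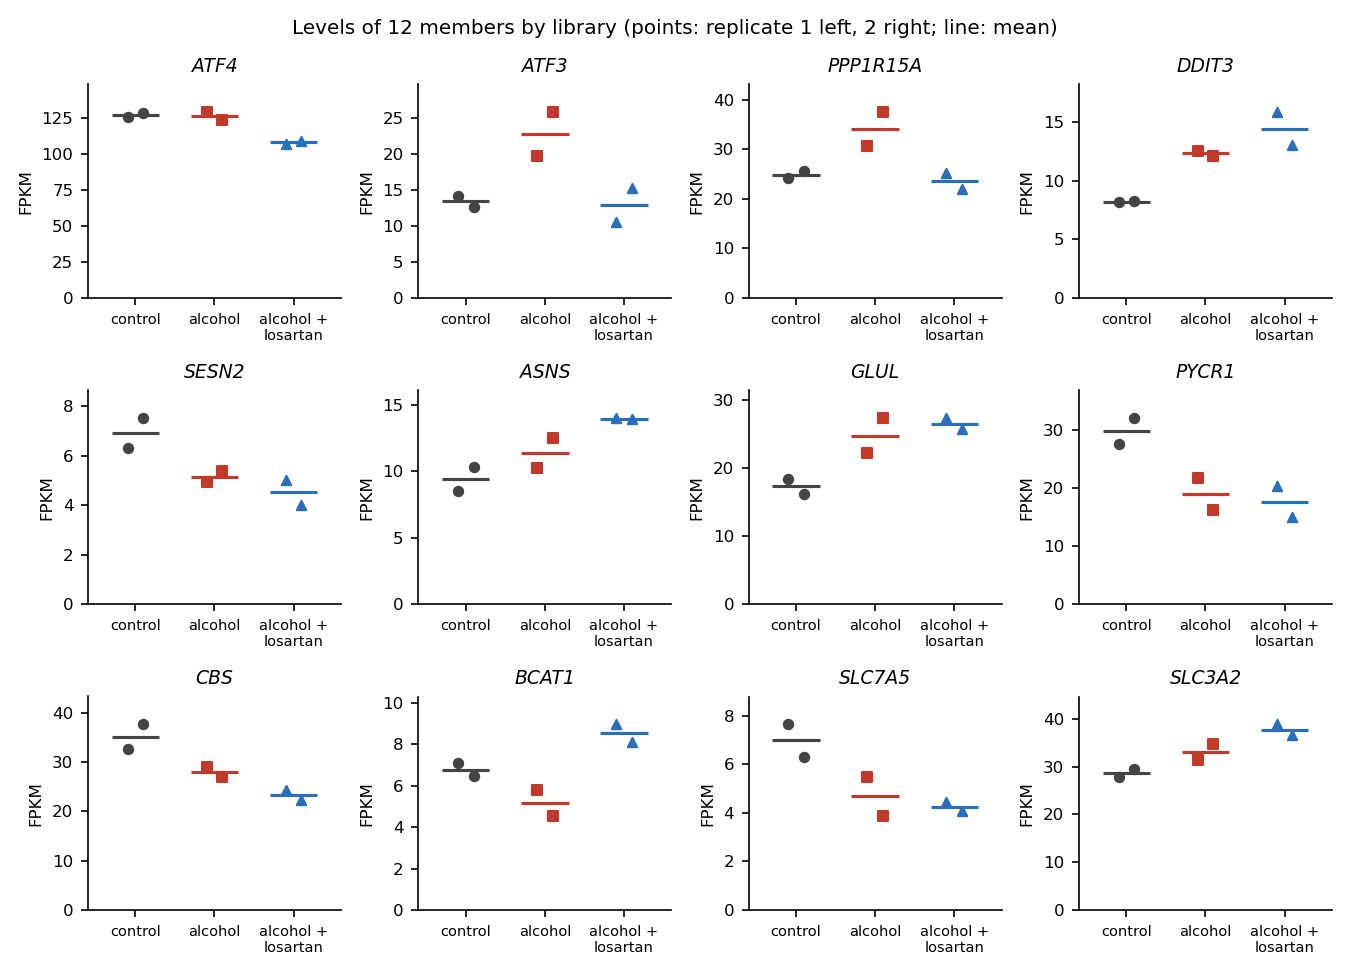
FPKM of 12 genes (1 panel each, linear axes from 0) in the control, alcohol and co-treated libraries, with replicate 1 on the left, replicate 2 on the right and a line at the mean. ATF3 and PPP1R15A are highest in the 2 alcohol libraries, BCAT1 is lowest there, and GLUL, PYCR1, CBS and SLC7A5 show both treated groups on the same side of control.

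The serine and one-carbon genes showed no common direction. This path turns a glycolytic intermediate into serine and glycine (PHGDH, PSAT1, PSPH, SHMT1, SHMT2). MTHFD2 and MTHFD1L act on the one-carbon units that folate carries in mitochondria. Of the 7, 3 were higher and 4 lower after alcohol, with a median log2 fold change of −0.18, and 1 had an unadjusted p under 0.05. PHGDH (NCBI Gene 26227), the first enzyme, stood at 19.9 and 39.0 FPKM in control, 26.0 and 38.2 FPKM after alcohol, and 30.9 and 30.2 FPKM after co-treatment. The 2 control libraries held both the lowest and the highest value, so the spread between replicates exceeded any difference between groups. Against control the log2 fold change was 0.08 (SE 0.24, adjusted p = 0.937) for alcohol and 0.01 (SE 0.24, adjusted p = 0.992) for co-treatment.

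MTHFD1L (NCBI Gene 25902), which releases formate, stood at 15.2 and 15.8 FPKM in control, 13.5 and 10.3 FPKM after alcohol, and 15.2 and 13.4 FPKM after co-treatment. The alcohol libraries lay below control, with a log2 fold change of −0.53 (SE 0.19, adjusted p = 0.325). This value rested on alcohol replicate 2, since it was −0.22 (adjusted p = 0.965) without that library and −0.89 (adjusted p = 0.0423) without alcohol replicate 1. MTHFD2 (NCBI Gene 10797), the mitochondrial folate dehydrogenase, stood at 14.5 and 13.3, 12.4 and 9.81, and 10.6 and 10.1 FPKM in the same order of groups. All 4 treated libraries lay below control, and the co-treated group differed from control by −0.47 (SE 0.18, adjusted p = 0.302). The locus of MTHFD2 overlaps SLC4A5, which had 82.4 to 125 counts.

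Of the rest, PSAT1 averaged 4.52 ± 0.467, 4.03 ± 0.233 and 3.60 ± 0.127 FPKM and PSPH 17.0 ± 1.37, 20.7 ± 3.78 and 18.0 ± 3.87 FPKM in control, alcohol and co-treated. SHMT1, the cytosolic enzyme, averaged 2.28 ± 0.573, 3.25 ± 0.368 and 3.05 ± 0.764 FPKM, and the mitochondrial SHMT2 averaged 35.6 ± 6.10, 29.6 ± 2.16 and 31.9 ± 4.31 FPKM. None of these 4 had an unadjusted p under 0.05 in any comparison. SHMT2 overlaps COXFA4L2, a gene with 68 and 31 counts in control, 16 and 5 after alcohol and 54 and 23 after co-treatment, next to 316 to 458 counts on SHMT2 itself. SHMT1 overlaps SMCR8, which had 176 to 218 counts, next to 23 to 45 counts on SHMT1.

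In the proline path PYCR1, of synthesis, lay below control and ALDH4A1, of breakdown, above it. ALDH18A1 and the reductases PYCR1 and PYCRL make proline from glutamate, and ALDH4A1 completes the way back. PYCR1 (NCBI Gene 5831) stood at 27.6 and 32.0 FPKM in control, 21.7 and 16.3 FPKM after alcohol, and 20.3 and 15.0 FPKM after co-treatment. The treated libraries all lay below control, and the alcohol and co-treated libraries overlapped. The log2 fold change against control was −0.66 (SE 0.18, adjusted p = 0.181) for alcohol and −0.79 (SE 0.18, adjusted p = 0.0827) for co-treatment. Over the 14 alternatives the adjusted p of the latter ranged from 0.0394 to 0.452.

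ALDH4A1 (NCBI Gene 8659) stood at 25.2 and 25.2 FPKM in control, 33.6 and 36.8 FPKM after alcohol, and 37.7 and 28.1 FPKM after co-treatment. No treated library reached down to control. Its log2 fold change was 0.44 (SE 0.14, adjusted p = 0.250) for alcohol and 0.33 (SE 0.14, adjusted p = 0.337) for co-treatment. Leaving out co-treated replicate 1 gave 0.12 for the latter, and leaving out co-treated replicate 2 gave 0.52. ALDH18A1 ranged from 8.71 to 11.4 FPKM over the 6 libraries, with both control libraries highest. PYCRL averaged 3.10 ± 0.417, 2.52 ± 0.679 and 2.32 ± 0.0354 FPKM, and neither gene had an unadjusted p under 0.05.

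Among the genes for glutamine, asparagine, aspartate and alanine, GLUL lay above control in all 4 treated libraries and ASNS in both co-treated ones. GLUL (glutamine synthetase, NCBI Gene 2752) stood at 18.4 and 16.2 FPKM in control, 22.1 and 27.3 FPKM after alcohol, and 27.2 and 25.8 FPKM after co-treatment. The treated libraries all lay above control, and the alcohol and co-treated libraries overlapped. It had 657 to 1079 expected counts a library. In most libraries these were not whole (748.85 in control replicate 1), so its count may be shared with similar sequence. The log2 fold change against control was 0.47 (SE 0.13, adjusted p = 0.179) for alcohol and 0.57 (SE 0.13, adjusted p = 0.0787) for co-treatment. For the latter the adjusted p ranged from 0.0221 to 0.421 over the 14 alternatives.

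ASNS (asparagine synthetase, NCBI Gene 440), whose promoter is printed above, stood at 8.50 and 10.3 FPKM in control, 10.3 and 12.5 FPKM after alcohol, and 14.0 and 13.9 FPKM after co-treatment. Both co-treated libraries were higher than the other 4, while control and alcohol overlapped. Its log2 fold change was 0.26 (SE 0.18, adjusted p = 0.670) for alcohol against control, 0.27 (SE 0.18, adjusted p = 0.917) for co-treated against alcohol and 0.53 (SE 0.18, adjusted p = 0.239) for co-treated against control. The first value was 0.15 without control replicate 1, 0.40 without control replicate 2 and 0.14 without alcohol replicate 2, and the second 0.15 without alcohol replicate 1. ATF4 RNA was lowest in the co-treated libraries.

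GPT2, the mitochondrial alanine transaminase (NCBI Gene 84706), stood at 9.14 and 7.08 FPKM in control, 6.47 and 5.90 FPKM after alcohol, and 7.85 and 6.40 FPKM after co-treatment. Alcohol libraries lay below control, with a log2 fold change of −0.43 (SE 0.19, adjusted p = 0.418), and the co-treated libraries overlapped with both groups. Leaving out control replicate 1 gave −0.20. GOT1 averaged 104 ± 17.8 FPKM after alcohol and 109 ± 1.07 FPKM after co-treatment, and GOT2 67.4 ± 1.99 and 69.1 ± 4.57 FPKM, each overlapping with control.

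CBS, which joins homocysteine to serine on the way to cysteine, had the smallest adjusted p of the 40 genes between co-treated and control. CBS (NCBI Gene 875, chromosome 21) stood at 32.7 and 37.6 FPKM in control, 28.9 and 26.9 FPKM after alcohol, and 24.2 and 22.3 FPKM after co-treatment. The 3 groups did not overlap and stood in this order. The log2 fold change was −0.35 (SE 0.13, adjusted p = 0.327) for alcohol against control, −0.29 (SE 0.13, adjusted p = 0.897) for co-treated against alcohol and −0.64 (SE 0.13, adjusted p = 0.0601) for co-treated against control. The last of these had an adjusted p of 0.0368 to 0.361 over the 14 alternatives and was called in 6 of them. The reference holds a near-identical copy of the gene, CBSL, which was not analysed here, and how the counting shared reads between them is uncertain. The expected counts of CBS were whole in each library, at 286 to 485.

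CTH, which completes the step to cysteine, was low, at 0.410 to 1.26 FPKM, and overlapped in all groups. ASS1 and ASL, which make arginine from citrulline, averaged 12.4 ± 0.976 and 6.22 ± 0.141 FPKM in control, 14.6 ± 2.66 and 5.20 ± 0.580 FPKM after alcohol, and 14.7 ± 0.672 and 5.05 ± 0.537 FPKM after co-treatment. Neither had an unadjusted p under 0.05.

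ACY1, an enzyme that frees amino acids from their acetylated form, had the largest difference of the 40 genes between alcohol and control, but its counts cannot be read alone. ACY1 (NCBI Gene 95, chr3:51983535-51989197 in GRCh38.p14) lies whole within the read-through gene ABHD14A-ACY1 (NCBI Gene 100526760, chr3:51975064-51989197). ACY1 had 77.6 and 48.3 expected counts in control, 17.1 and 20.6 after alcohol, and 21.1 and 23.7 after co-treatment. The read-through gene had 10.2 and 19.9, 59.7 and 54.5, and 69.4 and 38.1 counts in the same order. The share of their summed counts given to ACY1 was 88.4% and 70.9% in control, 22.3% and 27.4% after alcohol, and 23.3% and 38.3% after co-treatment.

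Taken alone, ACY1 differed from control by a log2 fold change of −1.75 (SE 0.34, adjusted p = 0.0916) after alcohol and −1.51 (SE 0.34, adjusted p = 0.0787) after co-treatment, and ABHD14A-ACY1 by 1.90 (SE 0.39, adjusted p = 0.108) and 1.81 (SE 0.40, adjusted p = 0.0776). Summed, the 2 genes had 87.7 and 68.2 counts in control, 76.7 and 75.1 after alcohol, and 90.5 and 61.8 after co-treatment. The groups overlapped, and the log2 fold change was −0.06 (SE 0.24, adjusted p = 0.958) for alcohol and −0.06 (SE 0.24, adjusted p = 0.947) for co-treatment against control. The split of the counts between the 2 genes thus differed between groups more than their total did. Whether transcripts or only their assignment differed was not tested.

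**Figure D4:**
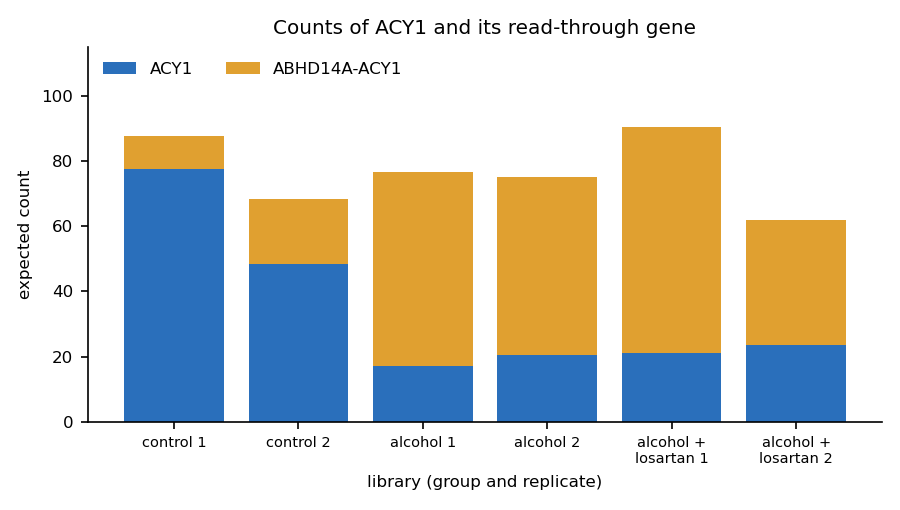
Expected counts of ACY1 (blue) and of the read-through gene ABHD14A-ACY1 (orange), stacked, for each of the 6 libraries, on a linear axis from 0. The blue part shrinks from 77.6 and 48.3 counts in control to 17.1 to 23.7 counts in the treated libraries, while the height of the bars stays between 61.8 and 90.5 counts.

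The 2 transaminases of branched-chain amino acids differed in pattern. BCAT1 (NCBI Gene 586), the cytosolic enzyme, stood at 7.09 and 6.47 FPKM in control, 5.78 and 4.52 FPKM after alcohol, and 8.96 and 8.13 FPKM after co-treatment. The groups did not overlap, with alcohol lowest and co-treated highest. The log2 fold change was −0.44 (SE 0.16, adjusted p = 0.301) for alcohol against control, 0.71 (SE 0.15, adjusted p = 0.461) for co-treated against alcohol, the smallest adjusted p of the 40 genes there, and 0.27 (SE 0.15, adjusted p = 0.496) for co-treated against control. Without alcohol replicate 2 the first 2 were −0.25 and 0.52. BCAT2, the mitochondrial enzyme, averaged 28.5 ± 1.65, 29.8 ± 2.42 and 25.9 ± 2.48 FPKM and differed from control by 0.02 (SE 0.14, adjusted p = 0.971) after alcohol.

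The summed level of 20 HIF-1 targets, genes that low oxygen raises, was also lowest in the alcohol libraries, though single genes such as SLC2A1 and EGLN3 overlapped with control. Of the 19 tested, 18 were lower between alcohol and control (median −0.45, 7 at an unadjusted p under 0.05) and 18 higher between co-treated and alcohol (median 0.71, 14 at an unadjusted p under 0.05), and none was called. Over all genes tested, 11% and 5.55% had such a p in these comparisons. The summed FPKM of the 20 targets was 3414 and 2959 in control, 2368 and 1276 after alcohol, and 2906 and 2570 after co-treatment. Proliferation markers were lower in alcohol as well, all 6 with an unadjusted p under 0.05 between alcohol and control (median −0.80), and 4 of the 6 were higher at that threshold between co-treated and alcohol. The summed FPKM of these 6 was 111 and 213 in control, 79.7 and 109 after alcohol, and 167 and 126 after co-treatment. The part of either in the values of BCAT1 was not tested.

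In the transporters the 2 chains of one carrier differed in sign. SLC7A5 (LAT1, NCBI Gene 8140) carries large neutral amino acids and SLC3A2 (NCBI Gene 6520) is the heavy chain that it and SLC7A11 share. SLC7A5 stood at 7.65 and 6.32 FPKM in control, 5.50 and 3.86 FPKM after alcohol, and 4.44 and 4.06 FPKM after co-treatment. All 4 treated libraries lay below control, with a log2 fold change of −0.61 (SE 0.21, adjusted p = 0.286) for alcohol and −0.77 (SE 0.21, adjusted p = 0.135) for co-treatment. Without alcohol replicate 2 the first was −0.35. The table also lists a pseudogene copy of SLC7A5, so its count may be shared with near-identical sequence.

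SLC3A2 stood at 27.8 and 29.4 FPKM in control, 31.5 and 34.7 FPKM after alcohol, and 38.8 and 36.6 FPKM after co-treatment. Its groups did not overlap, with control lowest and co-treated highest. The log2 fold change against control was 0.15 (SE 0.13, adjusted p = 0.734) for alcohol and 0.30 (SE 0.13, adjusted p = 0.338) for co-treatment. The glutamine carrier SLC1A5 (NCBI Gene 6510) stood at 12.3 and 13.9, 13.4 and 11.1, and 11.4 and 10.6 FPKM in the same order, and both co-treated libraries lay below control (log2 fold change −0.40, SE 0.16, adjusted p = 0.336). With limma on log2(FPKM + 1) this was −0.24, and on log2(FPKM + 0.1) it was −0.25. SLC7A11 averaged 0.730 ± 0.0141, 0.770 ± 0.226 and 0.575 ± 0.219 FPKM, with all groups overlapping.

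The 9 genes with the TGATGNAA core in a promoter window did not share a direction. Of them 4 were higher and 5 lower between alcohol and control (median log2 fold change −0.11), 5 higher and 4 lower between co-treated and alcohol (0.05), and 3 higher and 6 lower between co-treated and control (−0.10). At an unadjusted p under 0.05 they were 3, 2 and 3 of the 9, where 11%, 5.55% and 12.6% of all genes tested were. Of the 5 printed above, ASNS and SLC1A5 lay on opposite sides of control in the co-treated libraries, and ATF3 and BCAT1 on opposite sides of control in the alcohol libraries.

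Other genes of the pathway were examined as 3 further lists, and none of their genes was called in any comparison. Of 25 other genes of eIF2 and ATF4 signalling, 3, 3 and 5 had an unadjusted p under 0.05 in the comparisons of alcohol with control, co-treated with alcohol and co-treated with control. That is 12%, 12% and 20%, where 11%, 5.55% and 12.6% of all genes tested had such a p. TXNIP, which binds thioredoxin and limits glucose uptake, stood at 179 and 188 FPKM in control, 218 and 286 FPKM after alcohol, and 286 and 349 FPKM after co-treatment. All 4 treated libraries lay above control, and the log2 fold change of co-treated against control was 0.74 (SE 0.15, adjusted p = 0.0506). CREBRF, a regulator of the unfolded protein response, differed from control by 0.62 (SE 0.17, adjusted p = 0.190) after alcohol and 0.61 (SE 0.17, adjusted p = 0.156) after co-treatment. XPOT, which exports transfer RNA and is a target that ATF4 is known to raise, differed by −0.35 (SE 0.12, adjusted p = 0.305) and −0.31 (SE 0.12, adjusted p = 0.305), and OMA1, the mitochondrial protease that can start the response, by 0.20 (SE 0.28, adjusted p = 0.854) and 0.79 (SE 0.27, adjusted p = 0.248).

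Of 38 other enzymes 33 were tested, and 4, 3 and 5 (12.1%, 9.09% and 15.2%) had an unadjusted p under 0.05. SDSL, a serine dehydratase homologue, stood at 10.6 and 14.3 FPKM in control, 16.6 and 23.0 FPKM after alcohol, and 26.6 and 25.7 FPKM after co-treatment. The groups did not overlap, and the log2 fold change against control was 0.60 (SE 0.20, adjusted p = 0.273) for alcohol and 0.99 (SE 0.19, adjusted p = 0.0506) for co-treatment. TYMS, which uses one-carbon units to make thymidylate, differed by −0.59 (SE 0.17, adjusted p = 0.190) after alcohol. NAGS, which makes the activator of the urea cycle, differed by −1.37 (SE 0.55, adjusted p = 0.382) between alcohol and control and by 1.78 (SE 0.53, adjusted p = 0.774) between co-treated and alcohol, at 0.390 to 2.84 FPKM. AMT, of the glycine cleavage system, differed by 0.46 (SE 0.16, adjusted p = 0.257) after co-treatment against control.

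Of 23 other transporters 19 were tested, and 3, 0 and 7 (15.8%, 0% and 36.8%) had an unadjusted p under 0.05. SLC1A4, a carrier of serine and alanine, stood at 7.75 and 9.71 FPKM in control, 11.7 and 15.2 FPKM after alcohol, and 11.5 and 12.6 FPKM after co-treatment. Every treated library lay above control (log2 fold change 0.54, SE 0.15, adjusted p = 0.192 for alcohol and 0.38, SE 0.15, adjusted p = 0.320 for co-treatment). The taurine carrier SLC6A6 differed from control by −0.88 (SE 0.31, adjusted p = 0.298) and −0.94 (SE 0.31, adjusted p = 0.215). SLC38A2, which brings in neutral amino acids, differed by −0.35 (SE 0.13, adjusted p = 0.258) and SLC7A6 by −0.28 (SE 0.13, adjusted p = 0.376) in co-treated against control.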

How the data were processed

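RNA of 6 libraries (control, alcohol and co-treated, 2 each) was read from the deposited tables. For each library the deposited values are expected counts of genes, estimates made by the authors that need not be whole, and the deposited FPKM, that estimate scaled by gene length and library size. The submitters' processing notes name HISAT2 2.0.4, Bowtie2 2.2.5, RSEM 1.2.12 and the build hg38, without roles, and the strand setting is not given in the sources used here. Genes without a count in a library are missing from its table and were set to 0.

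Expected counts were rounded and fitted in edgeR 4.0.16 (quasi-likelihood, TMM, filterByExpr, R 4.3.3), all 6 libraries together, two-sided, with Benjamini-Hochberg adjustment over 14926 genes at 0.05. Standard errors were taken from the log2 fold change and its F statistic. The code was tested on simulated data. For a single gene, 2 libraries against 2 cannot give an exact permutation p below 0.333, so none was computed. FPKM is given per library or as mean ± SD. Totals of 4898287 to 5051448 counts limit the precision of genes with few counts, and CTH, CHAC1 and NUPR1 had under 10 in at least 1 library. FGF21, DELE1 and GCN1L1 were not listed under these symbols.

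Alternatives were DESeq2 1.42.0, edgeR with size factors of the DESeq2 type, dropping the filter, requiring 10 counts in all 6 libraries, limma 3.58.1 on log2(FPKM + 1) and log2(FPKM + 0.1), the replicate number as a block, fits of only the groups compared, and each library left out. The sum of ACY1 and its read-through gene was added after seeing the data. Members, lists and motif were chosen with earlier results of these data known. Values per library are given for members with an unadjusted p under 0.05 in any comparison and for ATF4, ASNS, TRIB3, CHAC1, DDIT3, ATF3 and PHGDH, and group values for the rest. In the other lists genes called are named, otherwise at most the 4 with the lowest p. Promoter sequences and positions are those of RefSeq, GRCh38.p14.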

Additional observations from a re-analysis of the deposited data

How the results depend on the processing

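Direction was followed for each gene in the comparisons where its unadjusted edgeR p was under 0.05. ATF4, ASNS, TRIB3, CHAC1, DDIT3, ATF3 and PHGDH were followed in all 3 comparisons, CHAC1 in 12 of the 14 alternatives. None changed direction under DESeq2, other size factors, either filter, either limma fit, the replicate block or fits of the groups compared alone. Genes called in the whole table depended most on the setting. Between alcohol and control there were 10, against 72 with DESeq2, 2 without a filter, 26 with at least 10 counts in every library, 0 and 2 with limma on log2(FPKM + 1) and log2(FPKM + 0.1), 48 with the replicate block, 3 with only the groups compared and 1 to 220 with a library left out. Between co-treated and alcohol there were 2, against 0 to 5 in most of these settings (1 with limma on log2(FPKM + 1)) and 1 to 24 with a library left out. Between co-treated and control there were 54, against 128 with DESeq2, 15 without a filter, 2 and 3 with limma, 136 with the replicate block, 158 with only the groups compared and 2 to 184 with a library left out. The cause of these shifts was not tested. Of the genes described here, those called between co-treated and control were 0, but 2 with DESeq2 (GLUL and CBS), 1 with at least 10 counts (CBS), 2 with the replicate block (PYCR1 and CBS), 4 with only the groups compared (PYCR1, GLUL, CBS and ACY1) and 0 to 4 with a library left out, and between alcohol and control 0 to 1. Deviations of same-numbered replicates correlated between groups at −0.0162 to 0.114 over all genes and at −0.275 to 0.216 over the 40 genes tested here. The labels name no pairing, and these correlations do not show whether there was any. Those at an unadjusted p under 0.05 were 5 to 16, 3 to 5 and 7 to 14 in the 3 comparisons with a library left out, and 3 and 7 with DESeq2 in the latter 2. Where it was followed, the direction turned only with a library left out. For alcohol against control the log2 fold changes then ranged from −0.30 to 0.64 for PHGDH, −0.80 to 0.15 for TRIB3, −0.11 to 0.024 for ATF4 and −0.49 to 0.58 for CHAC1. For co-treated against alcohol they ranged from −0.29 to 0.36 for TRIB3, −1.62 to 0.091 for CHAC1 and −0.30 to 0.18 for PHGDH, and for co-treated against control from −0.39 to 0.15 for ATF3, −0.38 to 0.56 for PHGDH, −0.74 to 0.20 for TRIB3 and −1.48 to 0.21 for CHAC1. Genes with few counts, CHAC1, CTH and SLC7A11 among them, have standard errors of 0.34 to 0.70. Differences of that size were not detectable at this depth, and larger ones could be missed as well.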
